A study of Homo sapiens with 5 samples.

Results

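Genomic imprinting marks a gene with DNA methylation on the copy from only one parent, so that the other parental copy alone is expressed. The marks are laid down in the germ line by DNMT3A with its cofactor DNMT3L, and are kept through cell division by DNMT1. This makes imprinted loci a place where methylation is dense on a single allele in most tissues, and where a change in methyltransferase activity is often looked for. The 10 loci described here were defined by position, as windows of 40 to 220 kb around H19, KCNQ1OT1, SNRPN, MEG3, PEG3, GNAS, PEG10, MEST, PLAGL1 and GRB10, 1.05 Mb in all. They were chosen with earlier results of these data known. Of 23350 methylation peaks in the 5 lists, 42 lay in these windows.

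K562, a line from a patient with chronic myeloid leukaemia, was the source of all 5 samples. WT bulk and WT transfected are labelled wild type for DNMT3A. MT1, MT2 and MT4 are lines with DNMT3A mutated by CRISPR/Cas9, which the labels call clones without giving the mutations or the number of editing events. All 5 were grown in the same medium with serum. MeDIP pulls down methylated fragments of all copies of a locus together, so no value here assigns methylation to a parent. Copy number of the loci, and whether both parental copies remain in these cells, were not determined. A peak is a stretch that reached the caller's score limit in that library. A locus without a peak did not reach this limit, and less methylation there cannot be told apart from a less sensitive library. Peak lists cannot show whether the cells carry markers of K562. The 2 wild-type cultures differ in history, so a p-value between genotypes reflects just the spread of these libraries, which may be technical.

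The lists differed in length, from 1426 peaks in MT2 and 2842 in MT1 to 4470 in WT transfected, 6213 in WT bulk and 8399 in MT4. Each peak is given with its score percentile, the percentage of the peaks of its own list that score no higher. All lists start near a score of 90, so this percentile still depends on the length of the list. Percentiles of different libraries are therefore not on fully the same scale. WT transfected also had few peaks on chromosome 7 below 60 Mb, where GRB10 lies. Outside the imprinted loci it held 25.2% (95% Wilson interval 17.8 to 34.4%) of the 103 regions there that at least 2 other libraries held, against 63.5% over all chromosomes.

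MeDIP responds to methylated CpG, so the CpG of the start windows is shown first for 4 loci that differed in the data. A start window is the stretch from 250 bases before to 50 after an annotated transcript start, from RefSeq in GRCh38.p14. PLAGL1 and MEST had a peak in all 5 lists, SNRPN in MT4 alone and H19 in none. CpG dinucleotides are in capitals. The PLAGL1 window is also the start of HYMAI, an imprinted non-coding RNA, and the SNRPN window is that of SNURF, which shares a transcript with SNRPN. For MEST the start with the most CpG is shown, and for H19 the single start of the table.
PLAGL1, chr6:144008210-144008509, minus strand: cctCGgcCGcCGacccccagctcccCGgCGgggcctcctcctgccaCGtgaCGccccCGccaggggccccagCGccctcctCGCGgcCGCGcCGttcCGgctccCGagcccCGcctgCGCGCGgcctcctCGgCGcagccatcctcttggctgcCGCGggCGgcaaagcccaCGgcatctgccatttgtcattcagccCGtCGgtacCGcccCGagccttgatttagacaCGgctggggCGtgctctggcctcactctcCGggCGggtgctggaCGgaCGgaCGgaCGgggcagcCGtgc
MEST, chr7:130491835-130492134, plus strand: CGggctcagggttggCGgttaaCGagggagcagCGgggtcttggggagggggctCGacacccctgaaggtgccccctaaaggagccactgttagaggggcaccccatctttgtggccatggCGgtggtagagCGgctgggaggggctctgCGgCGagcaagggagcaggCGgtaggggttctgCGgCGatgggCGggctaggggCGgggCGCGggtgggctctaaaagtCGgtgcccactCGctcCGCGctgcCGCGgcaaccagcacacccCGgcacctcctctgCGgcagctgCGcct
SNRPN, chr15:24954737-24955036, plus strand: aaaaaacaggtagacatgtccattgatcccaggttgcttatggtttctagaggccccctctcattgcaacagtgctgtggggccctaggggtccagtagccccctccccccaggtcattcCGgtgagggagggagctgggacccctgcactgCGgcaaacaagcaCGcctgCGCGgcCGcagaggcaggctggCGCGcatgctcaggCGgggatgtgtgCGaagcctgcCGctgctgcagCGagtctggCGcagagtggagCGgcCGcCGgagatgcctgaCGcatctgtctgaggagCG
H19, chr11:2001217-2001516, minus strand: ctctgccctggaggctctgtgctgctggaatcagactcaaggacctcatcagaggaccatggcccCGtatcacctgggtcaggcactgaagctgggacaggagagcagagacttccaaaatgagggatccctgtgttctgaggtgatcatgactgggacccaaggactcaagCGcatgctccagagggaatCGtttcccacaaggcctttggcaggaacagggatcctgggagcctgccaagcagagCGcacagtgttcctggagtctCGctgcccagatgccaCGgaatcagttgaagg

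The PLAGL1 window held 39 CpG in 300 bases, a number that 8.71% of the 35116 start windows of the table reached. The MEST window held 25 (reached by 32%), the SNRPN window 18 (44.5%) and the H19 window 6 (66.3%). These loci were picked because their peaks differed, and the remaining loci of the table did not follow the same order. GRB10 start windows held up to 49 CpG, with peaks in 3 libraries. Those of GNAS held up to 43, with peaks in all libraries but MT1. Those of MEG3 held 17 to 19, with no peak in any list. A relation between start-window CpG and peaks was not tested. TGCCGC, the core that the imprint-protecting zinc finger protein ZFP57 reads when its CpG is methylated, was searched on both strands. It was found 2 times in the PLAGL1 window, 3 times in the MEST window, 2 times in the SNRPN window and not in that of H19. The core also lay in 3 of 3 start windows of MEG3, 1 of 6 of GNAS and 1 of 5 of GRB10. Over the 7 loci in the table, 12 of 29 start windows held it, against 16.7% of all start windows. Several of the 29 overlap, among them the 3 of MEG3, so a site can be counted more than 1 time. The core contains a CpG, and the 29 windows held a median of 18 CpG against 14 over all windows. The shares were not matched for CpG. A match is a description of the letters only. The peaks are in hg19 and these windows in GRCh38.p14, so it was not determined whether a peak covers a start window.

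Peaks fell on 7 of the 10 loci. PLAGL1 and MEST had a peak in all 5 libraries. PEG3 and GNAS had peaks in 4 libraries, all but MT1. GRB10 had peaks in WT bulk, MT1 and MT4. KCNQ1OT1 and SNRPN had a peak in MT4 alone, and H19, MEG3 and PEG10 had none in any list. By library, 5 of the 10 loci had a peak in WT bulk and 4 in WT transfected, against 3 in MT1, 4 in MT2 and 7 in MT4.

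**Figure D1:**
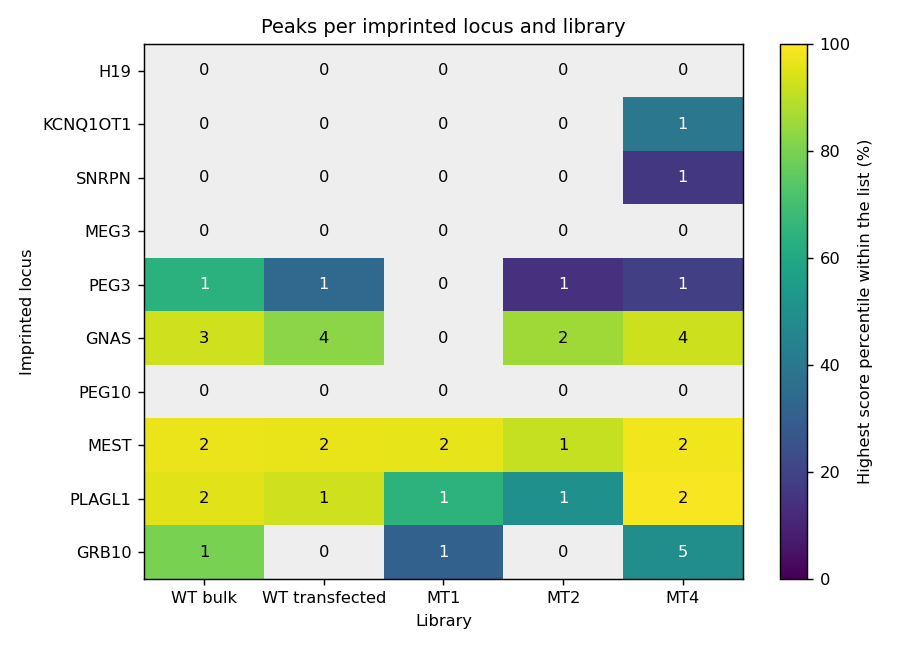
Number of peaks (digits) in each of the 10 imprinted loci (rows) in each library (columns); the colour gives the highest score percentile of these peaks within the list, and grey means no peak. MEST is high in all 5 libraries, GNAS is empty in MT1, and H19, MEG3 and PEG10 are empty throughout.

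The 42 peaks merged into 17 regions. None of the 17 had a peak in both wild-type libraries and no mutated one, a class that held 2.74% of the 11260 regions of the genome. None had a peak in the 3 mutated lines without one in either wild-type culture, a class of 0.071% genome-wide. At these background rates a count of 0 among 17 regions says nothing particular to imprinted loci. All 5 libraries held 2 of the 17 regions (11.8%, against 7.42% of all regions), at least 4 libraries held 6 (35.3%, against 18%) and at least 2 libraries held 9 (52.9%, against 50.1%). A single library held the other 8 (47.1%, against 49.9%), 7 of them MT4 and 1 WT bulk.

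MEST and PLAGL1 carried the 2 regions found in all libraries. Both are paternally expressed, but so are PEG3, KCNQ1OT1 and PEG10, which had a peak in 4, 1 and 0 libraries. MEST encodes a hydrolase-like protein of the mesoderm and is expressed from the paternal copy. Its main region, MEST 2 in the plots, spanned chr7:130129934-130133741 in hg19, of which 3043 bp lay in every one of the 5 peaks. The score was 291 in WT bulk and 264 in WT transfected, and it was 234 for MT1, 168 for MT2 and 314 for MT4. The score percentiles were 97.2, 96.6, 96.1, 91.2 and 97.7 in the same order. In all 5 lists the peak was thus among the top 10% of scores. Widths ran from 3043 bp in WT transfected to 3808 bp in MT2.

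PLAGL1 encodes a zinc finger protein that restrains growth, and overexpression of its locus is known from transient neonatal diabetes. Its common region spanned chr6:144328619-144330358. Scores were 264 in WT bulk and 219 in WT transfected, and they were 131 for MT1, 111 for MT2 and 368 for MT4. The percentiles were 95.6, 92.8, 64.5, 50 and 99.0. MT1 and MT2 lay below the other libraries and MT4 above them, so the mutated lines lay on both sides of the wild-type cultures. The order of the 5 percentiles, MT4, WT bulk, WT transfected, MT1 and MT2, was also the order of list length, for MEST as well as for PLAGL1. Widths differed little, from 1316 bp in WT bulk to 1684 bp in MT2, and 1245 bp were shared by all 5 peaks.

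To set the libraries on the same regions, the 2 peaks were ranked among the 835 regions that all 5 libraries held. MEST stood at place 149 from the top in WT bulk, 129 in WT transfected, 99 for MT1, 121 in MT2 and 154 in MT4. PLAGL1 stood at 221 in WT bulk, 244 in WT transfected, 582 for MT1, 519 in MT2 and 72 in MT4. The MEST percentile on this scale ranged over 6.59 points between libraries, and 95.1% of the common regions ranged at least as far. The PLAGL1 percentile ranged over 61.1 points, and 17.8% ranged at least as far, with a median range of 41.8 points. Ranking on common regions therefore left MEST level across the libraries and did not remove the spread of PLAGL1 between MT4 and the other mutated lines.

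**Figure D2:**
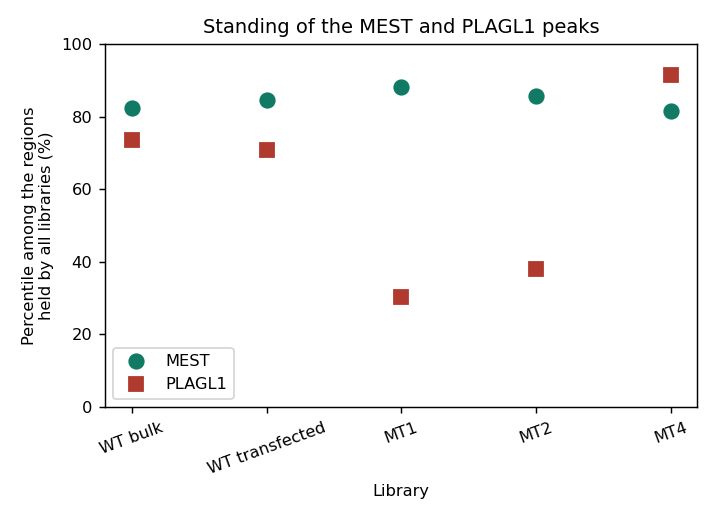
Percentile (vertical axis, %) of the MEST and PLAGL1 regions among the 835 regions held by all libraries, by library (horizontal axis); each point is 1 peak. MEST stays between 81.7 and 88.3, while PLAGL1 is at 30.4 in MT1, 38.0 in MT2 and 91.5 in MT4.

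MEST had another region at lower coordinates, chr7:130124610-130127023, with a peak in every library but MT2. Its scores were 99.9 in WT bulk, 112 in WT transfected, 146 in MT1 and 143 in MT4. The percentiles were 19.3, 39.1, 75.2 and 64.9, so both mutated libraries with a peak stood above both wild-type cultures. MT1, whose list is shorter than both wild-type lists, stood highest. The score limit of 90 lay just under the WT bulk value. With the third mutated line under the limit, no direction by genotype can be given.

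GNAS, a complex locus whose promoters are imprinted in opposite directions and which encodes the stimulatory G protein alpha subunit, held more peaks than any other of the 10 loci. It had 3 peaks in WT bulk, 4 in WT transfected, none for MT1, 2 in MT2 and 4 in MT4. The first region, chr20:57414419-57417878, scored 151 in WT bulk, 176 in WT transfected, 152 in MT2 and 207 in MT4, at percentiles of 68.2, 82.5, 85.9 and 87.8. The third, chr20:57463170-57466111, scored 238, 160, 119 and 232 in the same libraries, at percentiles of 92.9, 75.9, 63.0 and 92.3. These 2 regions were in the upper part of all 4 lists that held them, and MT2, with the shortest list, held both.

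The weaker GNAS regions were held by fewer libraries. The second, chr20:57428626-57431417, had a peak in WT transfected (score 125, percentile 53.8) and in MT4 (105, 28.0). The fourth, chr20:57483762-57486047, scored 140 in WT bulk, 122 in WT transfected and 112 in MT4, at percentiles of 61.5, 51.2 and 37.8. All 4 regions were over 2 kb across, with peaks from 1149 bp (the fourth region in MT4) to 3460 bp (the first region in MT4).

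MT1 lacked a peak in each of the 4 GNAS regions. Outside the imprinted loci MT1 held 42.0% (95% Wilson interval 32.8 to 51.8%) of the 100 regions of chromosome 20 that at least 2 other libraries held, close to its 43.4% over all chromosomes. Within 5 Mb of the GNAS window it held 8 of 18 such regions (44.4%, 95% Wilson interval 24.6 to 66.3%). So few regions leave the local rate of MT1 uncertain on both sides of its rate elsewhere. All GNAS regions but chr20:57428626-57431417 were held by both wild-type cultures. Outside the imprinted loci MT1 held 57% of the 3255 regions that both wild-type cultures held, above its rate of 43.4%. All 4 other libraries held chr20:57414419-57417878 and chr20:57463170-57466111, and the rate of MT1 for such regions was not determined. With 4 neighbouring regions in 1 library no test of the absence is possible.

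PEG3, a paternally expressed zinc finger gene, had a single region on chromosome 19, in all libraries but MT1. The scores were 144 in WT bulk, 108 in WT transfected, 94.7 in MT2 and 99.1 in MT4, and the percentiles 63.8, 34.1, 14.4 and 18.8. Both wild-type cultures stood above both mutated lines with a peak. MT2 and MT4 were within 10 units of the score limit. The peak of MT2 was 4309 bp wide and that of the others 1202 to 1336 bp, so the merged region of chr19:57348639-57352947 owes its length to MT2. The stretch in all 4 peaks was 1189 bp. Within 5 Mb of the window MT1 held 26.3% (10 of 38; 15.0 to 42.0%) of the regions that at least 2 others held.

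**Figure D3:**
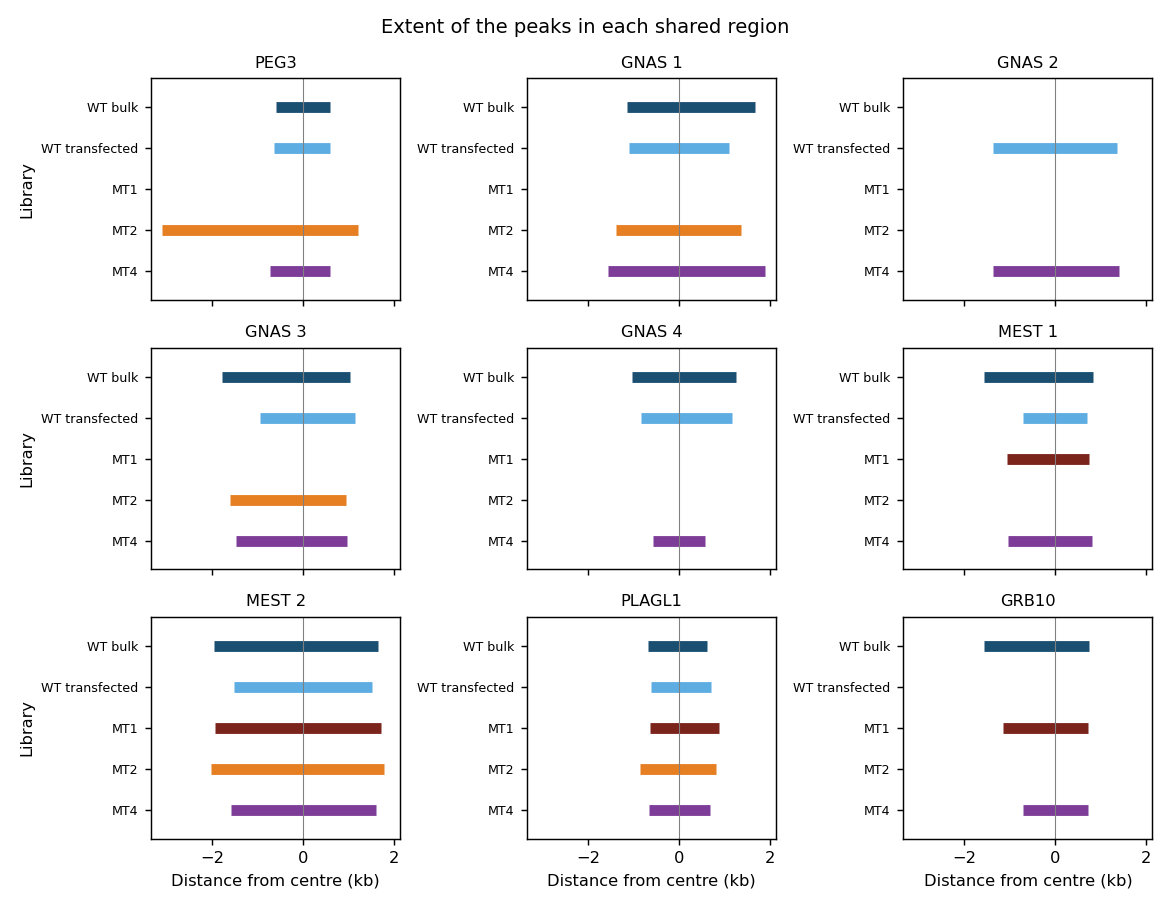
Extent of the peaks (bars) in the 9 regions held by at least 2 libraries (numbered by position where a locus has several), as distance in kb from the centre of the stretch common to all its peaks (horizontal axis), by library (vertical axis). The bars nearly coincide at PLAGL1 and MEST 2, the MT2 bar at PEG3 reaches 4309 bp, and MT1 has no bar at PEG3 or GNAS.

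GRB10 encodes an adaptor that binds the insulin receptor and is imprinted in a tissue-specific way. Its shared region, chr7:50848821-50851140, scored 176 in WT bulk, 105 in MT1 and 115 in MT4, at percentiles of 80.0, 31.1 and 40.8. WT bulk was above both mutated lines. WT transfected had no peak there, on the part of chromosome 7 where its list was short; within 5 Mb of the window it held 3 of 11 regions that at least 2 others held. The part of that shortfall in the missing peak was not tested. MT2, which also had no peak, held 5 of the 11 regions that at least 2 libraries other than MT2 held there.

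Regions of a single library were narrow and scored low. MT4 had 4 further peaks in the GRB10 window, of 739 to 1052 bp, at percentiles from 22.9 to 49.3; the highest was at chr7:50699986-50700795 with a score of 123. Its other solitary peaks were in the PLAGL1 window (609 bp, percentile 3.61), at SNRPN and at KCNQ1OT1. SNRPN encodes a splicing protein and lies in the Prader-Willi region; its peak was 615 bp at chr15:25200003-25200617 with a score of 97.6 and a percentile of 16.2. KCNQ1OT1 is a paternally expressed antisense RNA of the Beckwith-Wiedemann region; its peak was 738 bp at chr11:2660986-2661723 with a score of 114 and a percentile of 39.8. WT bulk had a solitary peak in the PLAGL1 window, chr6:144262658-144263635, with a score of 108 and a percentile of 30.8. All 8 solitary peaks lay below the median score of their list, in the 2 longest lists.

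H19 and MEG3 are maternally expressed long non-coding RNAs whose control regions are methylated on the paternal copy, and PEG10 is a paternally expressed gene derived from a retrotransposon. Their windows, at 2 to 2.07 Mb of chromosome 11, 101.25 to 101.33 Mb of chromosome 14 and 94.27 to 94.31 Mb of chromosome 7, held no peak. The nearest peak outside the H19 window was 90.7 to 90.8 kb away in 4 libraries and 293 kb in WT transfected. It was 355 to 1643 kb away from the MEG3 window and 131 to 1054 kb away from the PEG10 window. No peak of any list lay within 50 kb of these 3 windows. At a score limit of 90 with depth unknown, such an absence is no measure of methylation.

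**Figure D4:**
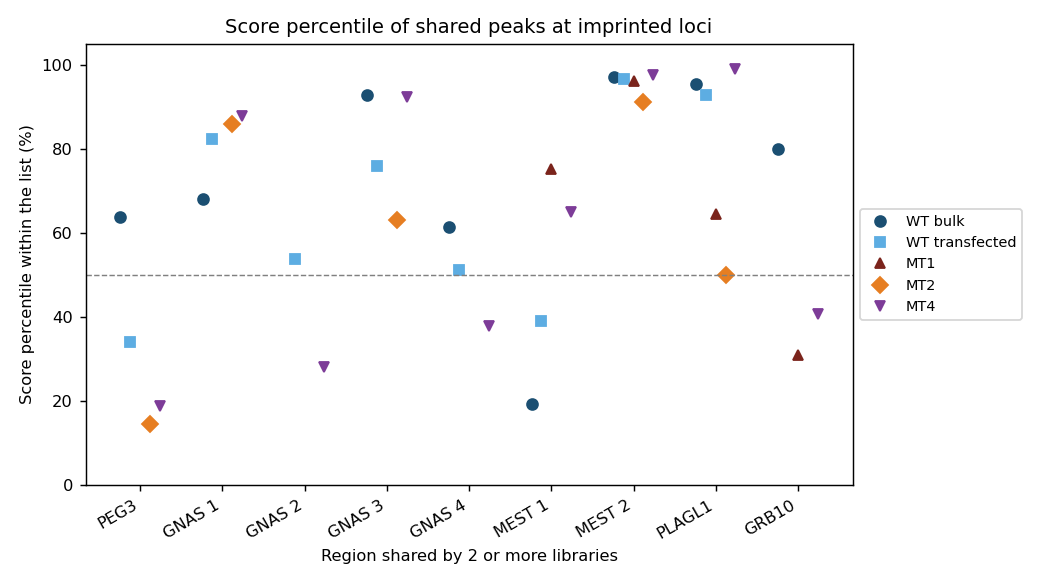
Score percentile within the list (vertical axis, %) of each peak in the 9 regions held by at least 2 libraries (horizontal axis), by library; the dashed line is the median of a list. MEST 2 is above 91 in all libraries, PLAGL1 runs from 50 to 99.0, and PEG3 from 14.4 to 63.8.

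The first comparison was between genotypes over all 10 loci. The number of loci with a peak averaged 4.67 ± 2.08 over mutated lines (SD, n = 3) and 4.5 ± 0.707 over wild-type cultures (SD, n = 2), with an exact permutation p of 1. The number of peaks in the loci was 9 in WT bulk, 8 in WT transfected, 4 for MT1, 5 in MT2 and 16 in MT4. The mutated lines averaged 8.33 ± 6.66 (SD, n = 3) and the wild-type cultures 8.5 ± 0.707 (SD, n = 2), with an exact permutation p of 1. Peaks covered 19.8 kb of the loci in WT bulk, 16.1 kb in WT transfected, 8.86 kb for MT1, 15.1 kb in MT2 and 24.5 kb in MT4 (exact permutation p = 0.8). The mutated lines lay on both sides of the wild-type cultures in each of these measures, and the spread between them exceeded the difference between the genotypes.

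Scores and widths in the loci gave no separation either. The median score percentile of the peaks in the loci was 68.2 in WT bulk, 64.9 in WT transfected, 69.8 for MT1, 63.0 in MT2 and 38.8 in MT4 (exact permutation p = 0.6). The low value of MT4 includes its 7 solitary peaks. The median width was 2320 bp in WT bulk, 2063 bp in WT transfected, 1835 bp for MT1, 2752 bp in MT2 and 1242.5 bp in MT4 (exact permutation p = 0.8). The loci held 0.145%, 0.179%, 0.141%, 0.351% and 0.190% of the lists in the same order (exact permutation p = 0.6). All 6 measures had a Benjamini-Hochberg adjusted p of 1, and no p under 0.2 was possible.

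The 7 regions that both wild-type cultures held were followed into the mutated lines. MT4 held 7, MT2 held 5 and MT1 held 3. Over the 3255 regions of the wild-type pair outside the loci, MT4 held 86.3%, MT2 32.5% and MT1 57%. MT2 thus held more of the 7 than MT1, the reverse of their order elsewhere; this reversal was not tested. The 3 held by MT1 were both MEST regions and PLAGL1, and MT2 held the main MEST region, PLAGL1, PEG3 and 2 of GNAS. Of regions held by at least 2 of the other 4 libraries, MT2 held 5 of 9 in the loci (95% Wilson interval 26.7 to 81.1%), against 23% (21.9 to 24.1%) elsewhere, and MT1 4 of 9 (18.9 to 73.3%), against 43.4% (42.1 to 44.7%). WT bulk held 8 of 9 against 80.9%, WT transfected 7 of 8 against 63.5%, and MT4 8 of 8 against 83.6%. Neighbouring regions of a locus are not independent, so these intervals are too narrow.

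The second comparison was with the rest of each list. The windows held 8.57 peaks per Mb in WT bulk, 7.62 in WT transfected, 3.81 for MT1, 4.76 in MT2 and 15.2 in MT4. The rest of the lists held 2.08, 1.49, 0.950, 0.476 and 2.81 peaks per Mb between the first and last peak of each chromosome. Density was higher in the loci in 5 of 5 libraries, by a factor of 4.01 in MT1 to 10.0 in MT2. The mean difference was 2.43 ± 0.53 on the log2 scale (SD, n = 5; exact sign-flip p = 0.0625, the smallest possible; adjusted over 3 measures 0.0938). The same 10 windows were scored in each of the 5 libraries. The SD and p of density, and those of width and percentile below, therefore cover the spread between libraries and not that between loci. Gene-rich and CpG-rich sequence was not matched in this comparison, so it does not set imprinted loci apart from other such sequence.

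The median width of peaks in the loci was also above the median of the list in 5 of 5 libraries. Single peaks could be narrower, such as that of WT bulk in the PLAGL1 window (978 bp). The list medians were 1255 bp in WT bulk, 1183 bp in WT transfected, 1335.5 bp for MT1, 1783 bp in MT2 and 1085 bp in MT4. The median in the loci was wider by 714 ± 378 bp (SD, n = 5; exact sign-flip p = 0.0625, adjusted 0.0938), from 157.5 bp in MT4 to 1065 bp in WT bulk. Without the GNAS locus it was wider in 4 of 5 libraries, the exception being MT4, where it was 969 bp. The median score percentile was higher in 4 of 5 libraries, with a mean difference of 10.9 ± 12.7 points (exact sign-flip p = 0.125, adjusted 0.125), and lower in MT4. None of the 3 tests passed 0.05, and gene-rich and CpG-rich sequence was not matched in any of them. All 5 libraries are cultures of the same line.

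**Figure D5:**
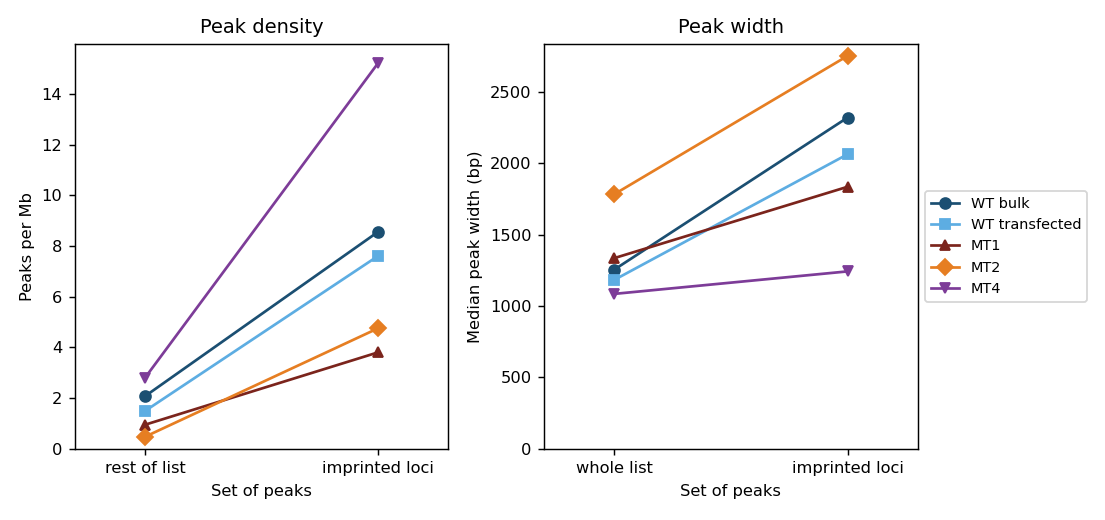
Peaks per Mb (left) and median peak width in bp (right) in the imprinted loci and in the rest of the list (density) or the whole list (width), with 1 line per library. Every line rises towards the imprinted loci; the width of MT4 rises least, by 157.5 bp.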

How the data were processed

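MeDIP-seq (methylated DNA immunoprecipitation and sequencing) of 5 K562 libraries was used. Per the submitters' processing notes, Bowtie 1.1.1, edgeR and hg19 are named; the role of each tool is not given in the sources used here. For each library, the authors deposited 1 peak list. Names of deposited peaks begin with MACS; which version, threshold or input control was used is not given in the sources used here. Scores as deposited by the authors, which start at 90, were used to rank peaks within a list. The higher score limit, among the alternatives below, also cut all 5 lists at the same score of 121.64. That cut sets scores of different libraries against each other. No read totals were used, so depth is unknown. Peak positions (start, end) are the authors' own.

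The 10 loci, the lists and the tests were chosen with earlier results of these data known. A peak belonged to a locus if it overlapped the window by at least 1 bp. Peaks of any list sharing at least 1 bp were joined into regions. The joining was run on simulated data, where it recovered 200 of 200 planted regions. These were planted far apart, with peaks that overlapped by design. The run thus checked the code only, and did not test neighbouring regions or wide peaks. Regions of at least 2 libraries are named with their positions, and regions of a single library by locus, with the position of the one at the highest percentile in each library; the SNRPN and KCNQ1OT1 positions are given beyond this rule and were added after their values were seen. Genotypes were compared by an exact two-sided permutation test over libraries (2 against 3, 10 arrangements, smallest p 0.2), and the loci with each library's own list by an exact two-sided sign-flip test over 5 libraries (smallest p 0.0625), which was added after the data were seen. Intervals are 95% Wilson intervals and cover counting error only; reads amplified by PCR are not independent molecules. Alternatives were a higher score limit, lists of equal length, windows widened by 50 kb, 50% of the peak inside the window, other merging rules (a bridged gap of 500 bp, an overlap of 50% of the shorter peak), leaving out each library, and, added after the data were seen, leaving out GRB10 or GNAS. Other imprinted genes were not analysed here, for want of gene models in hg19. Python 3.11.15, numpy 2.4.6, pandas 2.3.3 and scipy 1.17.1 were used.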

Additional observations from a re-analysis of the deposited data

How the results depend on the processing

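No exact test between genotypes could pass 0.05 under any setting. No paired analysis was possible because no label ties a wild-type culture to one of the mutated lines. Values are mutated minus wild type. The higher score limit applied the same score to all lists, although their depths are unknown. Above a score of 121.64 (the median over the 5 lists), the difference in loci with a peak was -1.33, in median percentile 3.86 and in median width 171.75 bp, all reversed; that in covered length grew to -6021.5 bp, with every mutated line below both wild-type cultures (exact permutation p = 0.2, the smallest possible), and that in peaks to -2.83. With lists of equal length (1426 peaks) the difference in loci was -0.5, in covered length 1475 bp and in width 96.3 bp, all reversed, and those in the number of peaks and the percentage of the list were 0. Without the GRB10 locus the difference in loci was 0. Without GNAS, that in peaks was 1.33, in covered length 1679 bp and in width 612 bp, all reversed, and the percentage of the list was higher in every mutated line than in both wild-type cultures (difference 0.0716 points, exact permutation p = 0.2). Leaving out each library gave -1 to 1 for loci (below 0 without WT transfected or MT4), -4 to 2 for peaks (above 0 without WT bulk, MT1 or MT2), 0.00371 to 0.109 points for the percentage of the list (lowest without MT2), -5946.5 to 1868.5 bp for covered length (above 0 without WT bulk or MT1), -15.7 to -0.123 for the percentile (nearest 0 without MT4) and -652.75 to 102 bp for width (above 0 without MT4). The signs for loci, peaks, covered length and width thus rest on single libraries or loci; those for the percentage of the list and the percentile held without any single library and without GRB10 or GNAS. The number of wild-type-only regions became 1 at the higher score limit and ranged from 0 to 1 without a library: it was 1 without WT transfected (a PLAGL1 region) and 1 without MT4 (the fourth GNAS region, as at the higher limit). Mutant-only regions numbered 0 in all 11 settings. The comparisons with each library's own list kept the direction of their mean in all 11 settings, with 2.21 to 2.54 for log2 density, 626.5 to 853 bp for width and 8.71 to 16.5 points for percentile without a library. The log2 density difference was 1.58 with windows widened by 50 kb and 2.98 with lists of equal length. Without GNAS, width was higher than in the list in 4 of 5 libraries and percentile in 3 of 5.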

Other observations

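A few peaks lay just outside the windows, within 50 kb. Beside MEST, WT bulk had a peak at chr7:130079519-130081140 with a score of 149 and MT4 an overlapping peak at chr7:130079752-130081160 with a score of 98.2. MT4 had a further peak at chr7:130071105-130071920 with a score of 94.7. Beside PEG3, WT transfected had a peak at chr19:57306377-57307192 with a score of 113 and MT4 an overlapping peak at chr19:57306406-57307181 with a score of 150. MT1 and MT2 had none within 50 kb of any of the 10 windows.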
